A study of Homo sapiens with 6 samples.

Results

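The genes described here supply the deoxyribonucleoside triphosphates (dNTPs) from which DNA is built: RRM1, RRM2, RRM2B, TYMS, TK1, DUT, DTYMK, DCTPP1 and SAMHD1. They were taken by name, as enzymes that make, convert or clear dNTPs, and make up 9 of the 58735 genes in the deposited table. RNA-seq was performed in PANC-1, an established human pancreatic ductal adenocarcinoma line, in 3 si-NC samples (control siRNA) and 3 si-METTL16 samples (siRNA against METTL16, which encodes an RNA N6-methyladenosine methyltransferase). The comparison asked which transcripts differ once METTL16 is silenced. The methods describe biological triplicates and a stable transfection. The titles name the controls si-NC, whereas the transfection label of the same samples reads WT. All samples come from 1 cell line, with no further allele, drug or time point, so the p-values measure only the spread between these cultures.

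Ribonucleotide reductase converts ribonucleotides into deoxyribonucleotides and is the main entry point to dNTPs. It joins a large subunit, RRM1, with a small subunit that carries the radical needed for the reaction, either RRM2, which is made in S phase and destroyed in mitosis, or RRM2B, which serves resting and damaged cells. Thymidine nucleotides need further steps, and other enzymes remove dUTP, modified dCTP or surplus dNTPs from the pool. Several of these genes are transcribed in S phase, and in bulk RNA more cells in S phase cannot be told apart from more RNA per cell.

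Each sample held 15725298 to 18054436 counts assigned to genes, and 15089 genes had enough counts for a test. Depth differed little between samples, with 3 counts standing for 0.166 to 0.191 CPM (counts scaled to library size), and replicates were separate libraries rather than copies. METTL16 (chromosome 17: 2405562-2511891) had 1546, 1641 and 1764 counts in si-NC samples against 571, 528 and 627 in si-METTL16 samples. Its log2 fold change was -1.48 (SE 0.07, edgeR quasi-likelihood test, adjusted p = 8.34e-05). Of 7 duct and epithelial markers, 6 passed the filter on low counts, with a summed level of 351 to 453 FPKM (counts scaled to gene length and library size) in si-NC and 360 to 400 FPKM in si-METTL16 samples. KRT19 (-1.40), KRT7 (-0.84) and SOX9 (-0.25) were lower on the log2 scale and passed the test, and KRT8, KRT18 and EPCAM did not pass. The acinar, endocrine and endothelial marker lists each summed to at most 0.481 FPKM in any sample, and CPA1, GCG, CD3E and MS4A1 were at 0. The 4 fibroblast genes summed to 25.1 to 29.0 FPKM in si-NC against 60.9 to 64.5 FPKM in si-METTL16 samples, nearly all of it COL1A1, with DCN, LUM and PDGFRB near 0. The 4 leukocyte genes summed to 1.18 to 1.21 FPKM against 1.63 to 1.99 FPKM, nearly all of it CD68. The part of these shifts in the results given here was not tested.

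All 9 dNTP supply genes passed the filter, and 8 differed between the groups. RRM1, RRM2, TYMS, TK1, DTYMK, DCTPP1 and SAMHD1 rose in si-METTL16 samples, RRM2B fell, and DUT did not pass the threshold. Across all tested genes 35.9% passed the same threshold, 18.4% as higher and 17.5% as lower, and the median log2 fold change was 0.00 against 0.79 for the 9 genes. The values of the 2 groups did not overlap for 8 of the 9 genes, compared with 50.9% of all tested genes. The largest change was that of RRM2, a 6.54-fold rise that placed it at rank 19 of 15089 when tested genes were ordered by log2 fold change.

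**Figure D1:**
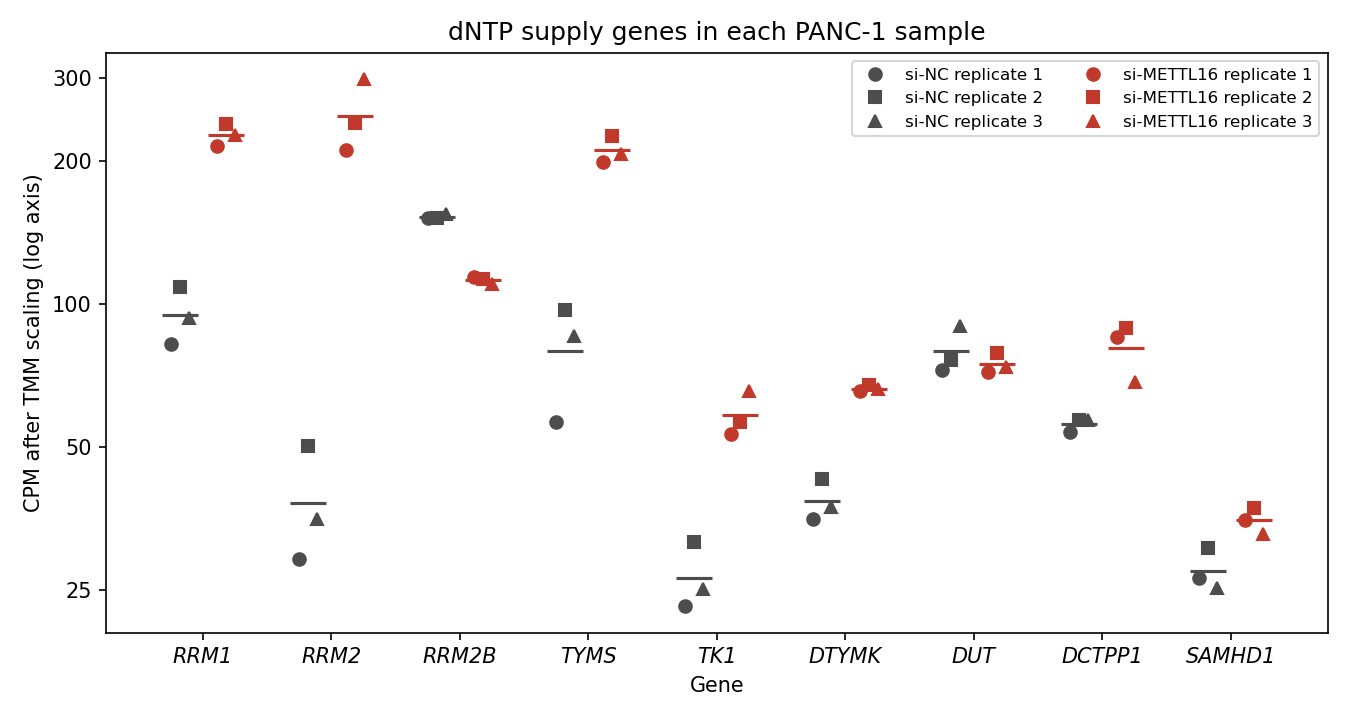
Level of each dNTP supply gene in every sample, in CPM on a log axis, with si-NC samples in grey, si-METTL16 samples in red, a marker shape for each replicate and a line at each group mean. RRM2 moved furthest, RRM2B was lower in all 3 si-METTL16 samples, and DUT overlapped between the groups.

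RRM1 (chromosome 11: 4094707-4138876), the large reductase subunit that binds the substrate and the allosteric effectors, was at 9.96, 13.1 and 11.3 FPKM in si-NC samples against 25.5, 28.5 and 27.1 FPKM in si-METTL16 samples. Every si-METTL16 sample was above every si-NC sample. The fold change from the counts was 2.39, or 1.26 on the log2 scale (SE 0.10, 95% interval 1.01 to 1.51, edgeR quasi-likelihood test, adjusted p = 0.000262).

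RRM2 (chromosome 2: 10120698-10131419), the S-phase small subunit, had 491, 853 and 618 counts in si-NC samples and 3463, 3757 and 5353 in si-METTL16 samples. Per length these were 2.83, 4.91 and 3.45 FPKM against 20.2, 23.2 and 28.8 FPKM, so the lowest si-METTL16 sample was far above the highest si-NC sample. The log2 fold change was 2.71 (SE 0.22, 95% interval 2.19 to 3.23, edgeR quasi-likelihood test, adjusted p = 0.000243), and its interval as a ratio ran from 4.56-fold to 9.39-fold. RRM2 was also the most variable of these genes, with a coefficient of variation of 28.6% in si-NC samples against 17.6% in si-METTL16 samples. Its processed copies RRM2P2, RRM2P3 and RRM2P4 held 70 counts together over the 6 samples. That is 0.479% of the counts of RRM2 and the copies combined, so few reads were assigned to them.

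RRM2B (chromosome 8: 102204502-102239118), the small subunit outside S phase, moved the other way. It was at 15.3, 15.2 and 15.6 FPKM in si-NC samples against 11.3, 11.2 and 11.0 FPKM in si-METTL16 samples, with a gap between the groups and a coefficient of variation of 1.23% and 1.92%. The si-METTL16 level was 73.5% of the si-NC level (log2 fold change -0.44, SE 0.05, 95% interval -0.57 to -0.32, edgeR quasi-likelihood test, adjusted p = 0.000858). This was the smallest change among the 3 reductase genes and the one with the tightest replicates. With any 1 of the 6 samples removed it still passed as lower, at -0.46 to -0.43.

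The balance of the subunit transcripts was compared per length within each sample. RRM2 relative to RRM1 was 0.285, 0.374 and 0.305 in si-NC samples and 0.792, 0.813 and 1.06 in si-METTL16 samples (0.321 ± 0.0469 against 0.889 ± 0.150, SD, n = 3 each). The difference was 1.47 on the log2 scale (two-sided exact permutation test, p = 0.1, the smallest value that 3 against 3 samples can give). RRM2 was below RRM1 in every si-NC sample, whereas the ranges of both genes overlapped among si-METTL16 samples. RRM2B relative to RRM2 was 5.40, 3.11 and 4.53 in si-NC samples and 0.558, 0.483 and 0.381 in si-METTL16 samples (4.35 ± 1.16 against 0.474 ± 0.0890, SD, n = 3 each). The log2 difference of -3.18 reversed which small subunit had the higher FPKM (exact permutation test, p = 0.1). RRM2 made up 15.6%, 24.3% and 18.1% of the summed FPKM of RRM2 and RRM2B in si-NC samples, and 64.2%, 67.4% and 72.4% in si-METTL16 samples. The sum itself went from 19.1 ± 1.01 to 35.2 ± 4.20 FPKM (SD, n = 3 each). As RRM1 rose as well, the sum of both small subunits relative to RRM1 was 1.68 ± 0.143 in si-NC samples against 1.30 ± 0.143 in si-METTL16 samples, a log2 difference of -0.37 (exact permutation test, p = 0.1). This last ratio was chosen after the values were seen. The gene lengths behind the deposited FPKM were not checked here. They set the level of every ratio between genes. Where RRM2 and RRM2B are summed they also shape the difference between the groups, so the lower summed ratio may not hold at other lengths.

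**Figure D2:**
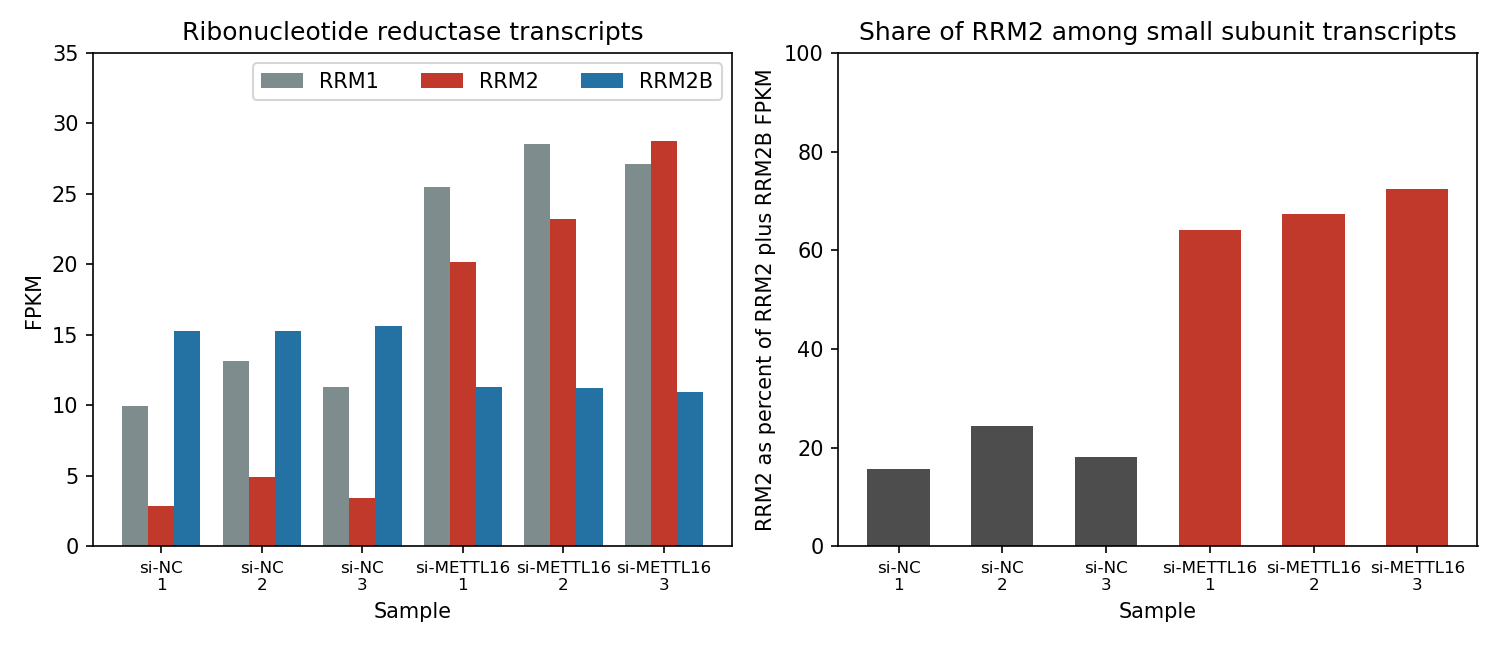
FPKM of RRM1, RRM2 and RRM2B in each sample (bars, left), and (right) the share of RRM2 in the summed FPKM of both small subunits in percent. RRM2B exceeded RRM2 in each si-NC sample and RRM2 exceeded RRM2B in each si-METTL16 sample.

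The thymidylate genes rose, except DUT. TYMS (chromosome 18: 657604-673578), thymidylate synthase, which methylates dUMP to dTMP, had the highest mean FPKM of the 9 genes in both groups. It was at 13.0, 22.3 and 19.8 FPKM in si-NC samples against 44.9, 51.2 and 47.1 FPKM in si-METTL16 samples, with no overlap. Its log2 fold change was 1.40 (SE 0.18, 95% interval 0.97 to 1.83, edgeR quasi-likelihood test, adjusted p = 0.00139). The spread was wide among si-NC samples, with a coefficient of variation of 26.2% against 6.44% in si-METTL16 samples, and si-NC replicate 1 was the low sample. ENOSF1, on the opposite strand, shares 39.9% of the TYMS exon bases, and the strand setting of the counting is not given in the sources used here. ENOSF1 had 434, 434 and 450 counts in si-NC samples against 387, 381 and 423 in si-METTL16 samples, with no rise beside TYMS.

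TK1 (chromosome 17: 78174075-78187233), the cytosolic thymidine kinase of the salvage route, was at 6.05, 8.25 and 6.58 FPKM in si-NC samples against 13.7, 14.6 and 17.0 FPKM in si-METTL16 samples. Its log2 fold change was 1.14 (SE 0.14, 95% interval 0.81 to 1.47, edgeR quasi-likelihood test, adjusted p = 0.00106). DTYMK (chromosome 2: 241675742-241686991), which phosphorylates dTMP from either route to dTDP, was at 8.38, 10.2 and 8.92 FPKM in si-NC samples against 15.3, 15.8 and 15.6 FPKM in si-METTL16 samples. In both genes all si-METTL16 samples were above all si-NC samples. The DTYMK log2 fold change was 0.79 (SE 0.09, 95% interval 0.57 to 1.00, edgeR quasi-likelihood test, adjusted p = 0.000801).

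DUT (chromosome 15: 48331011-48343373) hydrolyses dUTP to dUMP, the substrate of TYMS, and so keeps uracil out of DNA. It was at 9.41, 9.87 and 11.6 FPKM in si-NC samples against 9.14, 10.1 and 9.45 FPKM in si-METTL16 samples, and the groups overlapped. The log2 fold change was -0.09 (SE 0.09, edgeR quasi-likelihood test, adjusted p = 0.506), and its 95% interval of -0.31 to 0.13 lay below the intervals of TYMS, TK1 and DTYMK. The value rested on si-NC replicate 3, the highest sample: without it the log2 fold change was 0.01 (adjusted p = 0.96 by edgeR). TYMS relative to DUT was 1.78 ± 0.447 in si-NC samples against 5.00 ± 0.0847 in si-METTL16 samples (SD, n = 3 each), a log2 difference of 1.52 (exact permutation test, p = 0.1), and this ratio was also chosen after the values were seen. The 8 DUT pseudogenes held 11 counts over the 6 samples, 0.140% of the counts of DUT and the pseudogenes combined.

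The remaining enzymes remove nucleotides from the pool. DCTPP1 (chromosome 16: 30423619-30430075), which hydrolyses dCTP and its modified forms, was at 12.6, 13.4 and 13.5 FPKM in si-NC samples against 19.7, 20.7 and 15.9 FPKM in si-METTL16 samples. The groups did not overlap, although si-METTL16 replicate 3 was closer to the si-NC samples than the others. The log2 fold change was 0.53 (SE 0.11, 95% interval 0.28 to 0.78, edgeR quasi-likelihood test, adjusted p = 0.00824). ZNF771, on the opposite strand, shares 41.2% of the DCTPP1 exon bases and had 146, 164 and 206 counts in si-NC samples against 141, 147 and 175 in si-METTL16 samples.

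SAMHD1 (chromosome 20: 36889773-36951901) cleaves dNTPs to nucleosides and thereby lowers the pool. In mean CPM, without scaling to length, TK1 at 26.6 was below SAMHD1 at 27.5 in si-NC samples. By mean FPKM, SAMHD1 was the lowest of the 9 genes in both groups. It was at 0.739, 0.854 and 0.704 FPKM in si-NC samples against 0.959, 1.02 and 0.905 FPKM in si-METTL16 samples, without overlap. The log2 fold change of 0.35 (SE 0.10, 95% interval 0.11 to 0.59, edgeR quasi-likelihood test, adjusted p = 0.0336) was the weakest of the 8 calls. It was lost without si-NC replicate 1 (0.32, adjusted p = 0.0957), without si-NC replicate 3 (0.29, adjusted p = 0.107), without si-METTL16 replicate 1 (0.35, adjusted p = 0.0801) and without si-METTL16 replicate 2 (0.30, adjusted p = 0.104), all by edgeR. The direction was the same each time.

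**Figure D3:**
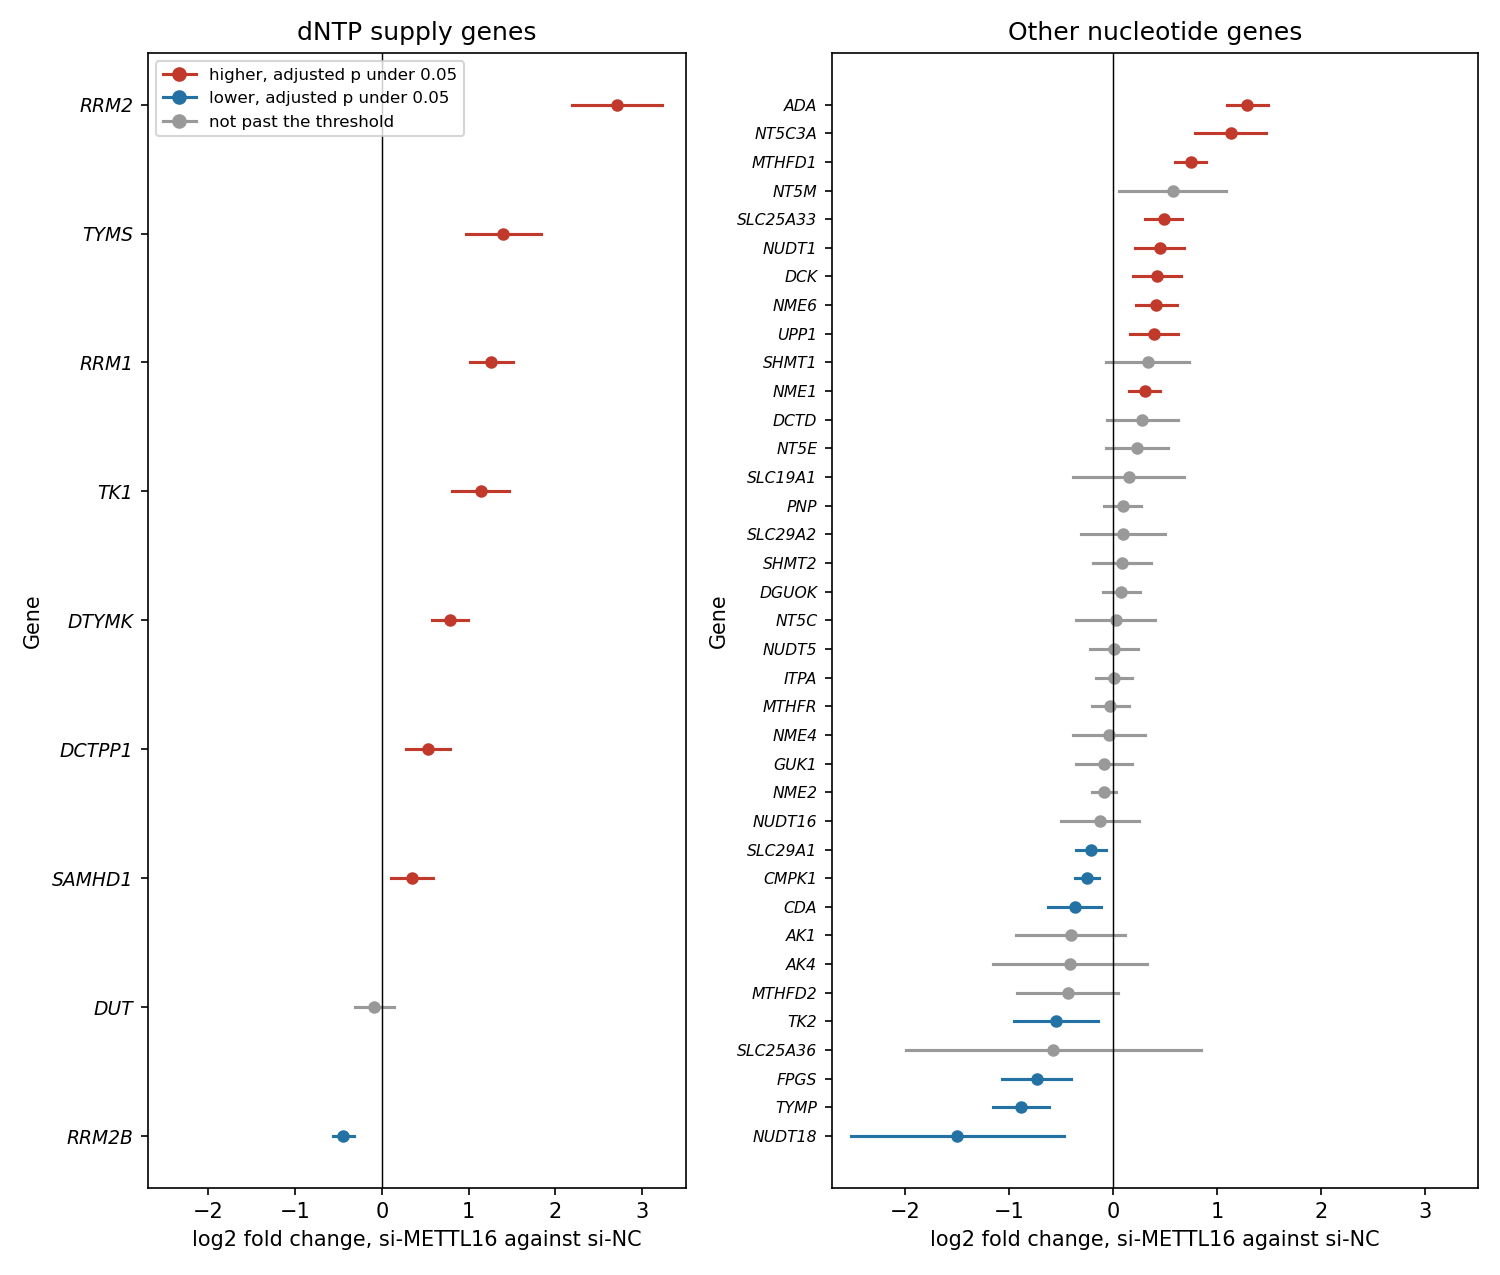
Log2 fold change (si-METTL16 minus si-NC, horizontal axis) with its 95% interval from edgeR for each dNTP supply gene on the left and other nucleotide genes on the right, in red where higher, blue where lower and grey where the threshold was not passed. The interval of DUT includes 0, RRM2B lies below 0, and RRM2 at 2.71 lies to the right of every other gene shown.

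The order of the levels per length changed between the groups. In si-NC samples the mean FPKM ran from TYMS at 18.4 and RRM2B at 15.4 through DCTPP1 at 13.2, RRM1 at 11.5, DUT at 10.3 and DTYMK at 9.17 to TK1 at 6.96, RRM2 at 3.73 and SAMHD1 at 0.765. TYMS overlapped RRM2B, DCTPP1 and RRM1, and from DCTPP1 to DTYMK each gene overlapped the next, so their order is not resolved by 3 samples. In si-METTL16 samples TYMS at 47.8 FPKM was followed by RRM1 at 27.0, RRM2 at 24.1, DCTPP1 at 18.8, DTYMK at 15.6, TK1 at 15.1, RRM2B at 11.1, DUT at 9.56 and SAMHD1 at 0.962. There, RRM2 overlapped both RRM1 and DCTPP1, and TK1 overlapped both DTYMK and DCTPP1. RRM2 moved from place 8 to place 3 and RRM2B from place 2 to place 7. The places also depend on the gene lengths behind the deposited FPKM, which were not checked here.

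Replicates of a group varied in a shared way over these genes. Of the 7 genes that rose, si-NC replicate 1 was the lowest si-NC sample in 6 and si-NC replicate 2 the highest in 6. Among si-METTL16 samples, replicate 1 was the lowest in 5 and replicate 2 the highest in 5. RRM2 and TK1 were instead highest in si-METTL16 replicate 3. How often each replicate was lowest or highest over all tested genes was not counted, so this order may not be particular to these genes. These 7 genes are therefore not independent readings of 1 change.

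**Figure D4:**
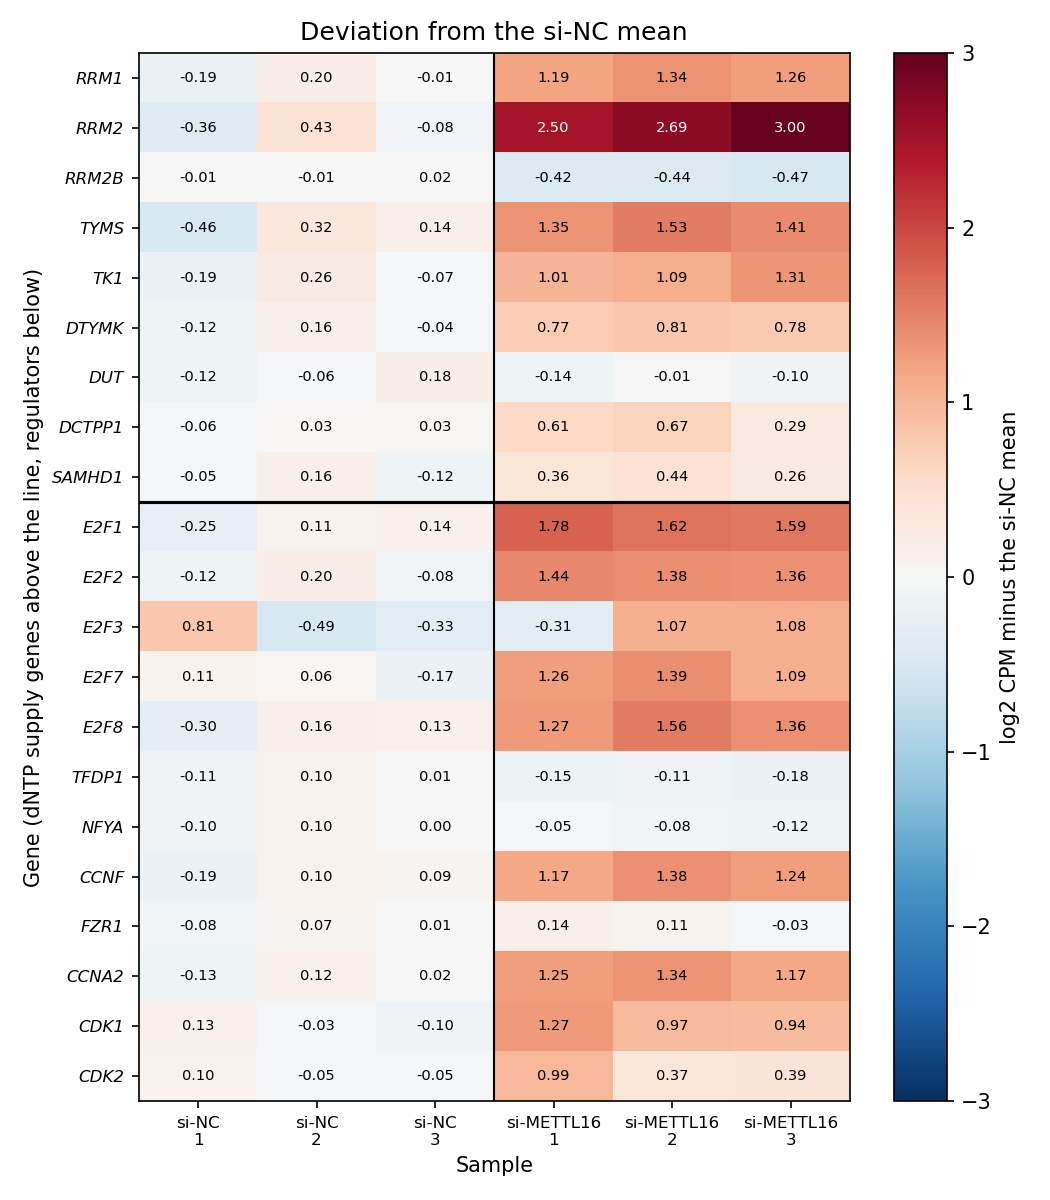
Log2 CPM in each sample (columns) minus the si-NC mean for each dNTP supply gene above the line and the regulators named in the text below it, as colour and printed value. The si-NC samples fall in a similar order for most genes that rose, and the si-METTL16 values of RRM2 lie above those of every other gene shown.

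The tested genes whose profile was most like that of RRM2 were found by the root mean square difference of log2 CPM, centred on the si-NC mean, over the 6 samples. They were PIPOX (0.152), MARCHF4 (0.304), HRH3 (0.336), AC009163.6 (0.338) and ZNF702P (0.371). MARCHF4, a ubiquitin ligase, went from 3.64 ± 0.682 to 30.8 ± 0.740 CPM, and ZNF702P, a pseudogene, from 5.06 ± 0.171 to 28.5 ± 3.24 CPM (SD, n = 3 each). PIPOX, HRH3 and AC009163.6 stayed at or under 1.19 CPM on average, where the prior count of 2 shapes the log2 profile. The difference was not scaled to the size of the change. A gene that changed less than RRM2 is therefore placed farther away even with the same order of samples. None of the dNTP supply genes was among the 5 nearest. The nearest was TYMS (0.935, rank 185), followed by RRM1 (1.05, rank 299) and TK1 (1.13, rank 426), and RRM2B was the farthest (2.26).

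The other genes of nucleotide metabolism did not move as a block. Of 42 listed genes 41 were tested, and 12 rose, 7 fell and 22 did not pass the threshold, beside 18.4% higher and 17.5% lower over all tested genes. Their median log2 fold change was 0.08. CMPK2 had too few counts for a test, with 2, 0 and 3 counts in si-NC and 0 in each si-METTL16 sample.

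Of 8 genes of the folate and thymidylate cycle, 1 rose and 1 fell. MTHFD1, which interconverts cytosolic one-carbon folates, went from 7.34 ± 0.344 to 12.1 ± 0.524 FPKM (SD, n = 3 each, log2 fold change 0.75, edgeR adjusted p = 0.000283). FPGS, which adds glutamates that keep folates in the cell, went from 1.84 ± 0.251 to 1.09 ± 0.113 FPKM (log2 fold change -0.73, edgeR adjusted p = 0.00664).

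Among 12 tested kinases, 4 rose and 2 fell. DCK, which starts salvage of deoxycytidine and of drugs such as gemcitabine, went from 10.5 ± 1.15 to 13.8 ± 0.720 FPKM (SD, n = 3 each, log2 fold change 0.42, edgeR adjusted p = 0.0141), and its call was lost without si-NC replicate 3 (0.38, adjusted p = 0.0521). TK2, the mitochondrial thymidine kinase, went from 1.43 ± 0.299 to 0.963 ± 0.0965 FPKM (log2 fold change -0.55, edgeR adjusted p = 0.0425). The TK2 call held in 1 of 6 leave-outs, that of si-NC replicate 3 (-0.71), and the other 5 gave -0.61 to -0.42. NME6 (0.42), NME1 (0.30) and CMPK1 (-0.25) also passed, with values on the log2 scale. On the same strand, DCK shares 6.41% of its exon bases with MOB1B, and NME1 shares 18.7% with NME1-NME2. Some reads of DCK and NME1 therefore cannot be assigned with certainty.

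Of 10 genes of deoxynucleoside breakdown and interconversion, 3 rose and 2 fell. ADA, which deaminates adenosine and deoxyadenosine, went from 5.62 ± 0.379 to 13.5 ± 0.411 FPKM (SD, n = 3 each, log2 fold change 1.29, edgeR adjusted p = 0.000131). NT5C3A, a pyrimidine nucleotidase, went from 3.04 ± 0.490 to 6.56 ± 0.831 FPKM (log2 fold change 1.13, edgeR adjusted p = 0.0013). TYMP, which degrades thymidine, fell from 7.53 ± 0.295 to 4.02 ± 0.584 FPKM (log2 fold change -0.88, edgeR adjusted p = 0.00124), opposite in sign to TK1, which phosphorylates the same nucleoside. TYMP overlaps SCO2 and ADA overlaps PKIG, so some of their reads cannot be assigned with certainty. UPP1 (0.39) and CDA (-0.37) passed as well.

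Among 6 sanitisers of the nucleotide pool, 2 rose and 1 fell. NUDT1, which hydrolyses oxidised dGTP and dATP, was 1 of those that rose, with a log2 fold change of 0.45. NUDT18 went from 0.972 ± 0.383 to 0.337 ± 0.147 FPKM (log2 fold change -1.50, edgeR adjusted p = 0.0326). That call was lost without si-NC replicate 2 (-1.34), si-NC replicate 3 (-1.32), si-METTL16 replicate 1 (-1.24) or si-METTL16 replicate 2 (-1.45). Of 5 transporters, 2 rose, among them SLC25A33 (0.48), and SLC29A1 (-0.21), the equilibrative nucleoside transporter of the cell surface, fell.

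Of 13 genes known to control dNTP supply genes or to mark the cell cycle phase in which they are made, 8 rose and 5 did not pass the threshold of the edgeR test, beside 18.4% higher and 17.5% lower over all tested genes. E2F1, an activator of S-phase genes, went from 4.34 ± 0.633 to 13.6 ± 0.909 FPKM (SD, n = 3 each, log2 fold change 1.67, edgeR adjusted p = 0.000214). E2F2 (1.41), likewise an activator, and E2F7 (1.26) and E2F8 (1.41), which repress, rose too. CCNF, the F-box protein that sends RRM2 to degradation in G2, had a log2 fold change of 1.26, CCNA2 one of 1.25, and CDK1, which phosphorylates RRM2, one of 1.06. The transcript of RRM2 and that of the adaptor that removes its protein were thus both higher, and protein was not analysed here. CDK2 (0.61, edgeR adjusted p = 0.0297) was lost without si-NC replicate 1 (0.66), 2 (0.58) or 3 (0.59). Its si-METTL16 samples were at 59.7, 39.0 and 39.5 CPM, and without the first of them the log2 fold change was 0.38 (edgeR adjusted p = 0.0265).

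The genes that did not pass included E2F3 (0.62, edgeR adjusted p = 0.325), TFDP1 (-0.15, 0.168), NFYA (-0.08, 0.390) and FZR1 (0.07, 0.548). E2F3 had 1147, 467 and 539 counts in si-NC samples against 511, 1265 and 1471 in si-METTL16 samples, so both groups were split.

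The start-site sequences are shown for the genes that moved most and for DUT, since E2F sites and CCAAT boxes are the elements known at S-phase promoters. RefSeq promoter windows (GRCh38.p14, 250 bases before to 50 after each start) matched 8 of the 9 genes by symbol, with 13 windows in all. Both strands were searched for the E2F words TTTGGCGC, TTTCCCGC, TTTCGCGC and TTTGCCGC, for CCAAT, and for the cell cycle homology words TTTGAA and TTCGAA. Of the 35116 windows of all genes, 3.31% held an E2F word, 34.6% held CCAAT and 16.4% a homology word. Capitals mark the match, positions count from the start site, and each stretch is read 5′ to 3′ on the strand of its gene.
RRM2, -123, chr2:10122607-10122630, plus strand: aaggcgcagCCAATgggaagggtc
RRM2, -93, chr2:10122637-10122660, plus strand: atggcacagCCAATgggaagggcc
RRM2, -66, chr2:10122664-10122687, plus strand: gcaccaaagCCAATgggaagggcc
RRM1, -28, chr11:4094648-4094671, plus strand: tgtccatatCCAATggggcccatg
TK1, -77, chr17:78187115-78187138, minus strand: cgggcgctgATTGGccccatggcg
TK1, -46, chr17:78187084-78187107, minus strand: cggctcgtgATTGGccagcacgcc
TYMS, -39, chr18:657606-657629, plus strand: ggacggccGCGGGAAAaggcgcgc
DUT, -42, chr15:48332147-48332170, plus strand: cggggctgGCGGGAAAtttcggtt
DUT, -27, chr15:48332162-48332185, plus strand: atttcggtTTTGGCGCgctccctg

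Of the 2 RRM2 windows, the one shown held 3 CCAAT boxes in the same orientation, 30 and 27 bases apart and each followed by the letters gggaaggg, and 3.26% of all windows held CCAAT at least 3 times. The other RRM2 window, with a start farther upstream, held 1 CCAAT box near its upstream end. RRM1 held 1 CCAAT box, TK1 held 2 in the inverted form ATTGG in 1 of its 2 windows, and DTYMK and SAMHD1 held 2 each. E2F words were found in TYMS, where the match is the reverse complement of TTTCCCGC, and in 1 of the 4 DUT windows. DUT, which did not pass the threshold, thus held the same E2F word as TYMS, and DCTPP1, which rose, held none of the words. CCAAT was in at least 1 window of 5 of the 7 genes that rose, beside 39.7% of all genes with windows. It was in none of the 4 DUT windows, and RRM2B, which fell, had no window. A link between the rise and CCAAT, E2F or homology words was not tested. The counts are per gene, so they do not show which start site was used. A homology word was found once in RRM1 (-199), once in DTYMK (-84) and at 2 places in the DUT window with the E2F words (-214 and -129). A match in the letters is not evidence of binding. Only exact words were searched, so the absence of a word is not evidence that a gene lacks such a site.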

How the data were processed

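RNA-seq of 6 PANC-1 samples was analysed, 3 si-NC and 3 si-METTL16, grouped by title. For every gene the authors deposited a raw count and an FPKM value, with coordinates on GRCh38. Their processing notes list HISAT2 2.0.4 and StringTie 1.3.0, and the strand setting of the counting is not given in the sources used here. Among the symbols, 27 had been turned into dates by a spreadsheet and were restored from the gene identifiers.

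Counts were filtered with filterByExpr at its defaults (minimum count 10, minimum total count 15), scaled by TMM and compared in R 4.3.3 by edgeR's quasi-likelihood test (version 4.0.16), with p-values of 15089 genes adjusted by Benjamini-Hochberg and called under 0.05. The study's methods name limma, which was used as an alternative (3.58.1), as was DESeq2 1.42.0, because the deposited unit is raw counts. FPKM was used for levels between genes and for ratios, tested with two-sided exact permutation tests. The gene lengths behind the deposited FPKM were not checked. Shared exon bases were taken from GENCODE v44. Log2 CPM used a prior count of 2. Alternatives left out each sample, blocked on replicate number, and changed the filter, scaling, test and threshold. The edgeR step was tested on simulated data. The common biological coefficient of variation was 16.5%, and 3 samples a group limit the precision.

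The members and lists were chosen with earlier results of these data known. Genes named in the text were the 9 genes, METTL16, every listed nucleotide gene past the threshold that moved by 0.5 or more on the log2 scale, DCK and TK2 whatever their values, the regulators and the 5 genes most like RRM2. Other genes of the nucleotide list that passed are given with their fold change only. Some genes that the rule or the lists hold are counted but not reported here.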

Additional observations from a re-analysis of the deposited data

How the results depend on the processing

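Of 142 alternative values for the 9 dNTP supply genes, 135 kept their direction and their side of the threshold, 6 lost the call, all of SAMHD1, and 1 reversed (DUT, 0.006843 without si-NC replicate 3, with -0.15 to 0.01 over the 6 leave-outs). Beyond the leave-outs, SAMHD1 lost its call with no count filter (0.35, edgeR adjusted p = 0.0662) and in limma on log2(FPKM + 1) without a filter (0.15, adjusted p = 0.257), and it was not tested where a mean of 1 FPKM was asked for. At an adjusted p under 0.01, 3035 of 15089 genes, 7 of 9 dNTP supply genes and 10 of 41 other nucleotide genes were called. At an adjusted p under 0.05 together with a log2 change of 1 or more, 1172 genes, 4 dNTP supply genes and 4 other nucleotide genes were called. With 1 sample left out, 4159 to 4526 genes, 7 to 8 dNTP supply genes and 15 to 17 other nucleotide genes passed. With 1 added to both FPKM values the log2 difference of the RRM2 to RRM1 ratio was 1.24. Over all tested genes, same-numbered deviations of the 2 groups had correlations of 0.025, 0.037 and 0.030. Pairs with different numbers were not compared. Among the 7 genes that rose, replicate 1 was the lowest of its group in 6 (si-NC) and 5 (si-METTL16). Whether replicate numbers pair the samples is therefore not settled. A fit with the replicate number as a block called 5013 genes, with the 8 dNTP supply genes still called. Total count scaling, chosen after seeing the data, called 5426 genes, 2621 higher and 2805 lower. TK2, NUDT18 and CDK2 lost their calls in further alternatives, and the cause was not tested. Depth limits CMPK2 and the low genes, and intervals for them cover only these samples.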
